A study of Arabidopsis thaliana with 9 samples.

Results

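The wild type of Arabidopsis thaliana, accession Col-0 (WT), was compared between the seedlings labelled stress release and the seedlings labelled stress. The members are the 2 libraries that carry these titles, 1 a side, out of 9 libraries in the whole series. WT labelled release stands for whole seedlings that had spent 96 h on agar with polyethylene glycol at a water potential of -1.2 MPa and were then returned to control agar at -0.25 MPa for 10 h. WT labelled stress stands for seedlings collected at the end of the 96 h at -1.2 MPa. WT control stands for seedlings moved to fresh control agar at -0.25 MPa for the same 96 h. All seedlings were 7 days old at the first transfer and grew in continuous light on medium without sugar. The other libraries are the same 3 treatments in aba2-1, a mutant in abscisic acid (ABA) synthesis, and in p5cs1-4, a mutant in P5CS1, a gene of proline synthesis. Per the design text, each group is 1 library made of the mRNA of 3 independent experiments, so a difference between WT labelled release and WT labelled stress has no replicate check and no p-value.

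Low water potential holds water away from the root without damage to the tissue, and plants answer it through ABA and by storing proline. Proline is made from glutamate by P5CS1 and is broken down in mitochondria by proline dehydrogenase, PRODH1. Textbook accounts of Arabidopsis have P5CS1 and the ABA-regulated genes high during water shortage, and PRODH1 low during it and high once water returns. The comparison addresses which transcripts differ 10 h after the return to control medium.

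The titles and the letters on the deposited tables disagree for these libraries. The table of the sample titled WT stress release ends in S, and the table of the sample titled WT stress ends in R. The titles were followed, and every library is therefore called by its label. Exchanging the tables would turn the sign of every ratio below. PRODH1 had 25.5 CPM (the read count scaled by library size) in WT labelled release, against 188 in WT labelled stress and 187 in WT control. P5CS1 had 3918 CPM in WT labelled release, against 74.1 in WT labelled stress and 195 in WT control. RAB18, an ABA-regulated dehydrin, had 4950 CPM in WT labelled release, against 13.9 in WT labelled stress and 31.4 in WT control. All 3 genes go against the labels as the textbook accounts would have them. Which table belongs to which treatment was not tested beyond these values.

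Reads on genes came to 8792987 in WT labelled release, 8123886 in WT labelled stress and 4898426 in WT control, and the 3 counts that serve as a floor for a gene without reads correspond to 0.345, 0.395 and 0.699 CPM in that order. Each interval below is an exact 95% interval that covers counting error only, since the reads carry no molecular identifiers. Reads on plastid-encoded genes were 0.233% in WT labelled release, 0.485% in WT labelled stress and 0.587% in WT control. Whole seedlings hold root and shoot. Of 9 root markers, 4 reached 5 CPM and none of these 4 differed by 2-fold once 1 CPM was added to each value. PRP3 came nearest, with 8.50 CPM in WT labelled release, against 4.21 in WT labelled stress, a plain fold of 2.02 (1.32 to 3.16). The root glucosidase PYK10 had 3046 CPM in WT labelled release, against 3636 in WT labelled stress. In RNA of whole seedlings, fewer cells of a type and less RNA per cell cannot be told apart.

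WT labelled release and WT labelled stress differed widely. Of 16685 genes that reached 5 CPM in at least 1 of these libraries, 1718 were at least 2-fold higher in WT labelled release (10.3%) and 1932 were at least 2-fold lower (11.6%), or 21.9% in all. These shares are the background for every count of list members below. Folds and log2 ratios of lists and classes were taken on CPM + 1. At least 8-fold differences were found for 234 higher and 159 lower genes, and at least 32-fold differences for 64 higher and 16 lower genes, so that the tail reached further on the higher side. The median log2 ratio of all 16685 genes was -0.00. The higher genes took 17.1% of all reads in WT labelled release, against 3.86% in WT labelled stress and 4.44% in WT control. The lower genes took 7.67% of the reads in WT labelled release, against 22.5% in WT labelled stress and 22.1% in WT control. Per gene length, the higher genes had a median of 19.5 RPKM in WT labelled release and 4.03 RPKM in WT labelled stress, and the lower genes 6.18 and 22.2 RPKM.

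**Figure D1:**
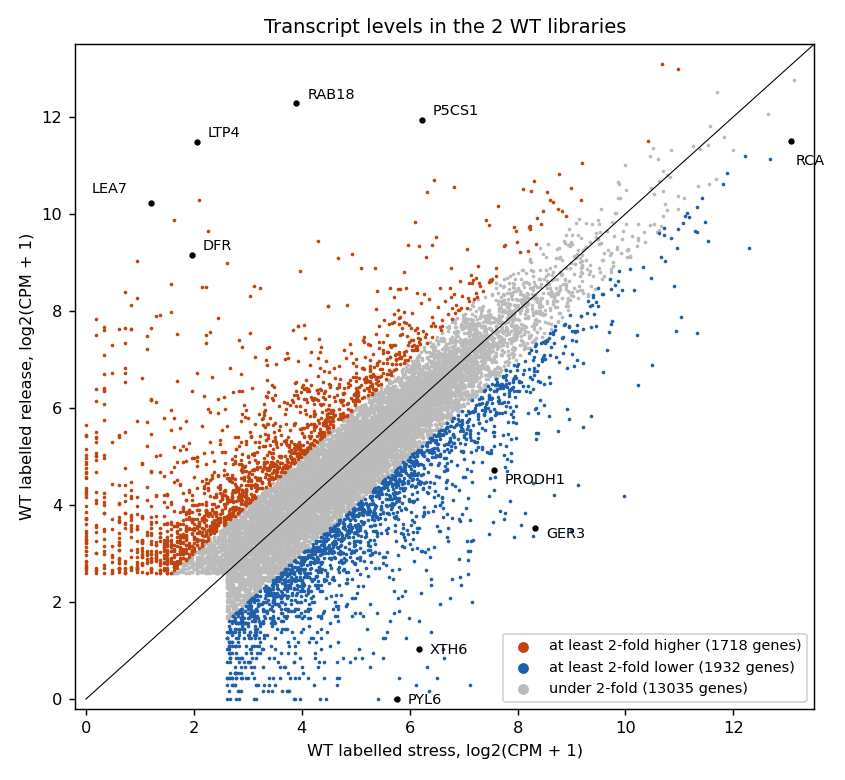
Level of each gene in WT labelled release (vertical axis) against WT labelled stress (horizontal axis), both as log2(CPM + 1), for genes that reached 5 CPM in at least 1 of them. Points are genes, red at least 2-fold higher (1718), blue at least 2-fold lower (1932) and grey in between, with the diagonal as the line of equal levels. LTP4, LEA7 and P5CS1 lie far above the diagonal, and PYL6, XTH6 and PRODH1 below it.

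The 10 genes with the highest ratios were LTP4, LEA7, RAB18, LTP3, RD29B, DAA1, SWEET15, LEA4-5, HSFA6A and LDOX. LTP4 (AT5G59310, chr5:23924990-23925957), a lipid transfer protein, had 2841 CPM in WT labelled release, against 3.16 in WT labelled stress and 3.73 in WT control, a fold of 900.0 (interval 605 to 1405). Its neighbour LTP3 (AT5G59320, chr5:23928954-23929816) had 941 CPM in WT labelled release, against 2.10 in WT labelled stress and 2.79 in WT control. LEA7 (AT1G52690, chr1:19619724-19621534), a late embryogenesis abundant protein, had 1200 CPM in WT labelled release, against 1.32 in WT labelled stress and 4.19 in WT control, a fold of 912 (496 to 1902). In each of these genes WT labelled stress and WT control stayed under 5 CPM and WT labelled release stood alone.

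RAB18 (AT5G66400, chr5:26518277-26519447) was 355-fold higher in WT labelled release than in WT labelled stress (interval 293 to 434). RD29B (AT5G52300, chr5:21237021-21239531), a hydrophilic protein of desiccated cells, had 1254 CPM in WT labelled release, against 3.29 in WT labelled stress and 8.85 in WT control, a fold of 381 (258 to 590). DAA1, an ATPase of the AAA family, had 519 CPM in WT labelled release, against 0.921 in WT labelled stress. The other 4 of the 10 highest ratios were SWEET15 (a sugar exporter, 227 against 0.132 CPM), LEA4-5 (180 against 0.132 CPM), the heat shock factor HSFA6A (201 against 0.263 CPM) and LDOX (a step of anthocyanin synthesis, 306 against 0.921 CPM), each value of WT labelled release before that of WT labelled stress. SWEET15 and LEA4-5 had 1 read each in WT labelled stress and HSFA6A had 2, so their folds of 1724 (309 to 68137), 1372 (246 to 54206) and 766 (212 to 6327) are loosely bounded.

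Among the 10 lowest ratios, PYL6, an ABA receptor, had no reads in WT labelled release, against 53.1 CPM in WT labelled stress and 6.99 in WT control. Against WT labelled stress this is 154-fold lower with a floor of 3 counts, and the lower bound of the interval is 125. CRK30, a receptor-like kinase, had 0.230 CPM in WT labelled release, against 68.0 in WT labelled stress and 14.0 in WT control. PRXCA, a peroxidase of the cell wall, had 0.804 CPM in WT labelled release, against 97.9 in WT labelled stress and 59.6 in WT control. XTH6 and XTH16, enzymes that cut and rejoin xyloglucan in the wall, had 1.03 and 0.574 CPM in WT labelled release, against 71.3 and 37.5 in WT labelled stress. The germin GER3 had 10.5 CPM in WT labelled release, against 320 in WT labelled stress, and the fasciclin-like arabinogalactan protein FLA9 had 11.0 CPM, against 267 CPM. TBL45, DCF and the transcription factor RAV1 complete the 10 lowest, and over the 10 genes the log2 ratio lay between -5.81 and -4.48.

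**Figure D2:**
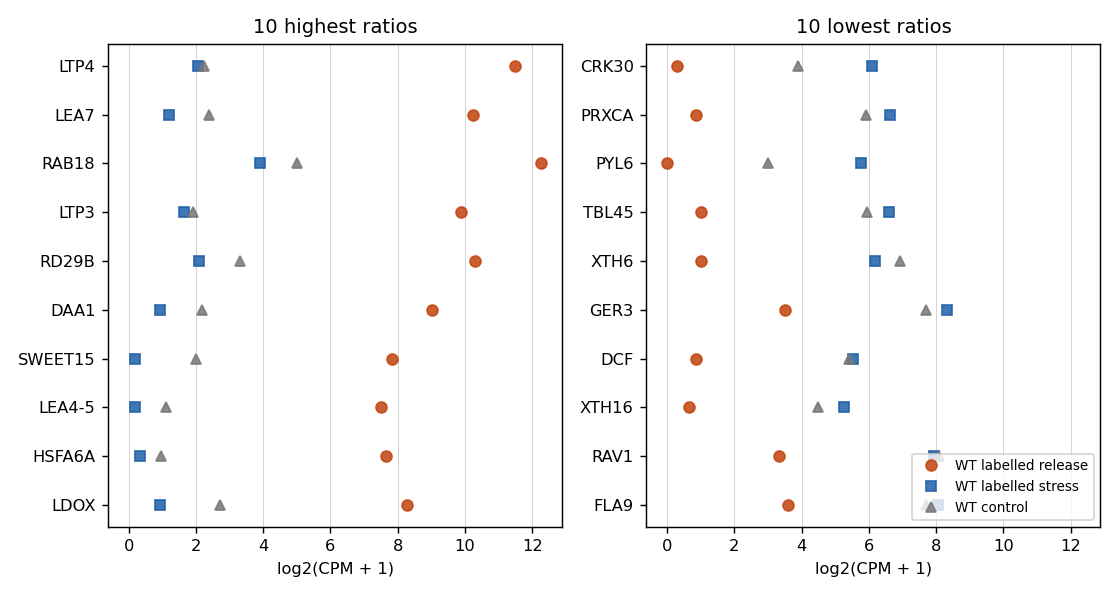
Levels of the 10 genes with the highest (left) and the 10 with the lowest (right) ratio, as log2(CPM + 1), with circles for WT labelled release, squares for WT labelled stress and triangles for WT control. Each symbol is 1 library. In the left panel every triangle lies nearer to its square than to its circle, with RAB18 at 31.4 CPM in WT control and 13.9 CPM in WT labelled stress, and in the right panel XTH6 and RAV1 have a WT control above WT labelled stress.

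By reads gained rather than by ratio, GRP-3, a small glycine-rich secreted protein, led with 8104 CPM in WT labelled release, against 2006 in WT labelled stress and 1688 in WT control. RAB18, P5CS1 and LTP4 followed, and then the catalase CAT3 with 5801 CPM in WT labelled release, against 3308 in WT labelled stress, under 2-fold. The 5 largest losses were all of photosynthesis. RCA, the activase of Rubisco, had 2887 CPM in WT labelled release, against 8532 in WT labelled stress and 11739 in WT control. The Rubisco small subunit gene RBCS1A had 2245 CPM in WT labelled release, against 6511 in WT labelled stress, and LHB1B2, of the light-harvesting complex, had 2333 against 4764 CPM. The small subunit genes RBCS3B (632 against 5012 CPM, WT labelled release before WT labelled stress) and RBCS2B (185 against 2555 CPM in the same order) were lower as well. Of the reads of RBCS3B, LHB1B2 and RBCS2B, fractions of up to 0.331, 0.118 and 0.113 in the WT pair were placed at several sites, so these 3 values are uncertain.

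Genes of proline synthesis had higher values in WT labelled release, while those of breakdown were divided, PRODH1 being lower and P5CDH higher. P5CS1 (AT2G39800, chr2:16598072-16603319) was 52.9-fold higher in WT labelled release than in WT labelled stress (interval 48.7 to 57.6). The housekeeping copy P5CS2 had 424 CPM in WT labelled release, against 139 in WT labelled stress and 151 in WT control, a fold of 3.04 (2.84 to 3.26). P5CR, the last step of synthesis, had 229 CPM in WT labelled release, against 129 in WT labelled stress, under 2-fold. DELTA-OAT, the ornithine aminotransferase that joins arginine breakdown to proline metabolism, had 92.1 CPM in WT labelled release, against 35.4 in WT labelled stress. All 4 of these genes were higher in WT labelled release, and of the 4 only P5CR stayed under 2-fold.

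PRODH1 (AT3G30775, chr3:12448636-12451556), with 25.5 CPM in WT labelled release against 188 in WT labelled stress, was 7.38-fold lower (6.40 to 8.54). Its relative AT5G38710 had 1.95 CPM in WT labelled release, against 6.18 in WT labelled stress and 15.1 in WT control. P5CDH, the second enzyme of breakdown, stood on the other side, with 204 CPM in WT labelled release, against 42.2 in WT labelled stress and 54.5 in WT control, a fold of 4.83 (4.29 to 5.46). A fraction of up to 0.188 of the reads of P5CDH in the WT pair was placed at several sites, so its value is uncertain. The proline transporters PROT1 and PROT2 differed by under 2-fold. Of the 10 genes listed for proline, 9 reached 5 CPM, 4 were at least 2-fold higher and 2 lower, and their median log2 ratio was 0.83, beside -0.00 for all genes. With no floor on CPM the median of the list was 0.35.

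**Figure D3:**
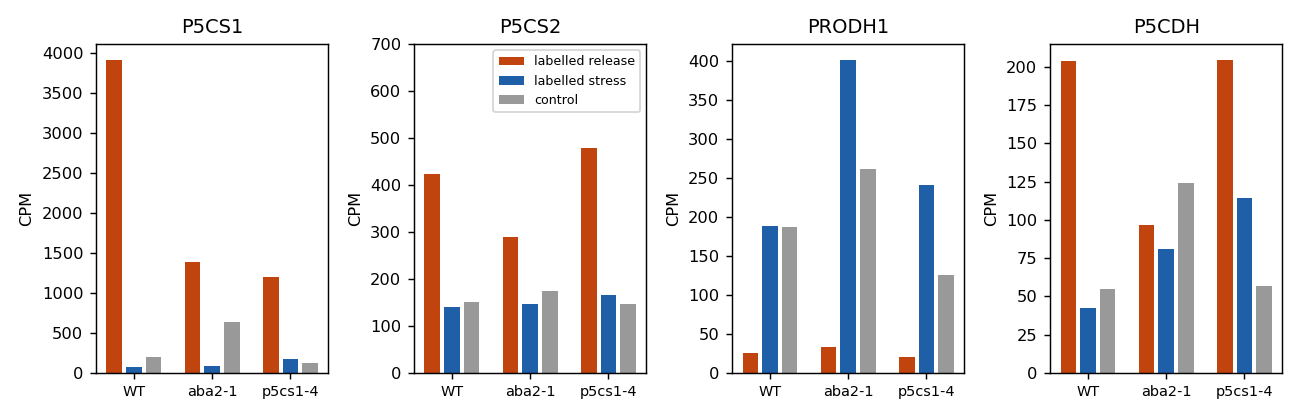
CPM of P5CS1, P5CS2, PRODH1 and P5CDH in the 9 libraries, with bars for labelled release, labelled stress and control from left to right in WT, aba2-1 and p5cs1-4. Each bar is 1 library, each panel has its own scale from 0, and no error bar can be drawn. PRODH1 is lowest in labelled release in every genotype (25.5 CPM in WT, 33.6 CPM in aba2-1 and 20.1 CPM in p5cs1-4).

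The group C and S1 bZIP factors, several of which bind the PRODH1 promoter and answer to low energy, had 9 genes that reached 5 CPM, none at least 2-fold higher and 3 lower. Of all genes, 10.3% were higher and 11.6% lower. bZIP63 had 15.6 CPM in WT labelled release, against 96.6 in WT labelled stress and 65.4 in WT control, 6.18-fold lower (5.14 to 7.48). bZIP53, a known activator of PRODH1, had 21.6 CPM in WT labelled release, against 61.3 in WT labelled stress, and bZIP1 had 23.4 against 67.1 CPM. In 5 of the 9 genes (bZIP1, bZIP2, bZIP11, bZIP44 and bZIP53) the deposited fraction of shared reads reached 1 in the WT pair, so their values are uncertain. Whether these reads were shared with distant sites or with overlapping gene entries was not tested.

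ABA is made from carotenoids by way of NCED3, the enzyme that limits its rate, and is broken down by hydroxylases of the CYP707A family. NCED3 had 61.1 CPM in WT labelled release, against 6.84 in WT labelled stress and 18.2 in WT control, 8.93-fold higher (6.71 to 12.1). BGLU18, a glucosidase that frees ABA from its glucose ester, had 1147 CPM in WT labelled release, against 198 in WT labelled stress and 550 in WT control. Of the hydroxylases, CYP707A1 had 28.1 CPM in WT labelled release, against 1.05 in WT labelled stress, and CYP707A4 had 10.5 against 0.789 CPM. CYP707A3 ran the other way, with 7.92 CPM in WT labelled release, against 30.1 in WT labelled stress and 37.5 in WT control. Of 16 genes listed for ABA synthesis and breakdown, 12 reached 5 CPM, and 7 were at least 2-fold higher and 1 lower, with a median log2 ratio of 1.58 that became 0.61 without any floor. A floor at 20 CPM gave 0.84.

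The early parts of ABA signalling stood in opposite directions. The PYR/PYL proteins are the receptors, and on binding ABA they hold back the clade A protein phosphatases 2C, which otherwise keep the SnRK2 kinases inactive. Of 10 receptor genes, 8 reached 5 CPM, 6 were at least 2-fold lower in WT labelled release and none was higher, with a median log2 ratio of -1.81. PYL4 had 7.35 CPM in WT labelled release, against 134 in WT labelled stress and 101 in WT control, 18.3-fold lower (14.2 to 23.9). PYL5 had 10.5 CPM in WT labelled release, against 103 in WT labelled stress, and PYL8 had 38.6 against 150.5 CPM. PYL7 differed from these, with 49.5 CPM in WT labelled release, against 28.8 in WT labelled stress, under 2-fold. A fraction of up to 0.417 of the reads of PYL7 in the WT pair was placed at several sites, so its value is uncertain. Its log2 ratio lay between 0.38 and 0.84 under the alternative settings.

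Of the 9 phosphatase genes, 8 reached 5 CPM, and all 8 were at least 2-fold higher in WT labelled release, with a median log2 ratio of 3.50. HAI1 had 373 CPM in WT labelled release, against 1.97 in WT labelled stress and 8.38 in WT control, 189-fold higher (114 to 338). HAI2 had 198 CPM in WT labelled release, against 0.526 in WT labelled stress. HAI3 had 22.6 CPM in WT labelled release and no reads in WT labelled stress. This is 57.3-fold higher with a floor of 3 counts, and the lower bound of the interval is 46.2. ABI1 and ABI2, the first known of the clade, had 351 and 112 CPM in WT labelled release, against 53.8 and 5.39 in WT labelled stress. The ninth, AHG1, stayed under 5 CPM in both libraries.

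Downstream, 11 of 13 kinase and transcription factor genes reached 5 CPM, and 9 were at least 2-fold higher in WT labelled release and none lower (median log2 ratio 1.72). The AREB/ABF factors bind the ABA-responsive element in promoters. ABF4 had 247 CPM in WT labelled release, against 64.7 in WT labelled stress and 66.8 in WT control, and ABF3 had 209 CPM, against 62.5 and 100.1 CPM. ABI5, a factor best known from seeds, had 23.3 CPM in WT labelled release, against 4.47 in WT labelled stress. AFP1 and AFP3, proteins that bind ABI5 and damp ABA responses, had 71.8 and 80.2 CPM in WT labelled release, against 1.32 and 6.18 in WT labelled stress. The kinases SNRK2.2 and SNRK2.3 were near equal (167 against 159 CPM and 41.2 against 41.7 CPM), while OST1 had 52.0 against 20.8 CPM, WT labelled release first.

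Of 27 genes listed as dehydration effectors, 25 reached 5 CPM, and 21 were at least 2-fold higher in WT labelled release and none lower, with a median log2 ratio of 3.82. Summed over the list, WT labelled release had 17660 CPM, WT labelled stress 1706 CPM and WT control 3980 CPM. Beside the genes above, COR15A, a chloroplast protein of cold and drought, had 242 CPM in WT labelled release, against 1.58 in WT labelled stress and 18.9 in WT control. TSPO, a membrane protein of stressed cells, had 236 CPM in WT labelled release, against 1.45 in WT labelled stress. The homeobox factor HB-7 had 695 CPM in WT labelled release, against 18.7 in WT labelled stress and 60.5 in WT control. The dehydrins ERD10, ERD14 and COR47 were abundant in all 3 WT libraries and differed by under 2-fold, COR47 with 551 CPM in WT labelled release, against 369 in WT labelled stress and 1100.1 in WT control.

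Seed genes moved beside these. EM1 and EM6, late embryogenesis abundant proteins that ABA also raises in seedlings, had 38.1 and 8.50 CPM in WT labelled release, against 0.132 and 0 in WT labelled stress, and the oil body protein OLEO2 had 5.51 against 0.263 CPM. The 7 seed markers together had 53.4 CPM in WT labelled release, 0.526 in WT labelled stress and 6.99 in WT control. The storage protein genes that define seeds were at or near 0, with CRA1 at 0.345 CPM, CRC at 0.574 CPM and SESA1 at 0 in WT labelled release.

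The core of the ABA-responsive element, ACGTG, was looked for on both strands of the 250 bases before the gene start, in the TAIR10.1 genome. Of the 10 genes with the highest ratios, 5 held the core and 5 (LTP4, LTP3, DAA1, HSFA6A and LDOX) did not. Promoters of 3 that held it are shown to display its placement, with the core in capitals, as ACGTG or, where it lies on the other strand, CACGT. They are RAB18 on the minus strand (chr5:26519448-26519697), RD29B on the plus strand (chr5:21236771-21237020) and LEA7 on the plus strand (chr1:19619474-19619723), each read 5′ to 3′ towards its gene.
RAB18: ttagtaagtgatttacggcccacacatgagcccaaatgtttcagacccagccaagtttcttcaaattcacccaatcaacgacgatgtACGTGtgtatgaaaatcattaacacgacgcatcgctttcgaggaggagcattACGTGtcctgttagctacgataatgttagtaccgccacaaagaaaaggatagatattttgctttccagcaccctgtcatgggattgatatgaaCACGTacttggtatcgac
RD29B: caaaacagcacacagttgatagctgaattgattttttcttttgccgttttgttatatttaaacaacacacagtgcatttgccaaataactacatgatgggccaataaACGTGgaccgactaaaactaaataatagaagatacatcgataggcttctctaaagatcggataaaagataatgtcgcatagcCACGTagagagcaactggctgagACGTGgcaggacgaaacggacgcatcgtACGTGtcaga
LEA7: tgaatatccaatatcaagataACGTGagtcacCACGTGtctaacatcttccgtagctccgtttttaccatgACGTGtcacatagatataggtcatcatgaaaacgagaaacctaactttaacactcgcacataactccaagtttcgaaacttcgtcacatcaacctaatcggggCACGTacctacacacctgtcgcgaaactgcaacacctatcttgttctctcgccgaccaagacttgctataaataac

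RAB18 held the core 3 times, RD29B 4 times and LEA7 5 times, where the palindrome CACGTG counts once on each strand and makes 2 of the 5. In RAB18 the matches began between 163 and 18 bases before the gene start, and in RD29B between 143 and 10. Of the 1672 genes at least 2-fold higher with a promoter in the annotation, 588 held the core (35.2%), and of 231 genes at least 8-fold higher, 119 (51.5%). The share was 23.3% for lower genes, 24.0% for genes with 5 CPM in either library and 22.9% for all promoters of this length. At least 2 matches were found in 34.6% of the promoters of genes at least 8-fold higher and in 8.82% of all promoters. P5CS1, like those 5, held none in this window, which says only that these letters are not there. These shares describe sequence and show no binding.

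The hexamer ACTCAT is known from an element through which low osmolarity and proline raise PRODH1. The promoter of PRODH1, on the minus strand (chr3:12451557-12451806), is shown with its match to the hexamer on the other strand in capitals, as ATGAGT. Whether this match is the known element was not tested.
PRODH1: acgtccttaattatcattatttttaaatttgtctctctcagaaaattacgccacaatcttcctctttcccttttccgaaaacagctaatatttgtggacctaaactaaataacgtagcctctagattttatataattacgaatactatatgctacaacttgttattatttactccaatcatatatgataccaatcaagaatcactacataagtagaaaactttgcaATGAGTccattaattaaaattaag
The match began 24 bases before the gene start. Searched on both strands in the same way, the hexamer was in 12.8% of the promoters of lower genes, 12.4% of those of higher genes and 12.5% of all promoters, so its share was near the background in both directions.

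Flavonoid and anthocyanin synthesis showed the largest median of the 31 lists, which were chosen with earlier results of these data known. Of 18 genes, 17 reached 5 CPM, 15 were at least 2-fold higher in WT labelled release and none lower, with a median log2 ratio of 4.30. CHS, chalcone synthase and the entry to the pathway, had 1655 CPM in WT labelled release, against 86.6 in WT labelled stress and 56.4 in WT control, 19.1-fold higher (17.7 to 20.7). The late steps that lead to anthocyanin differed more. DFR had 567 CPM in WT labelled release, against 2.89 in WT labelled stress and 6.99 in WT control, 196-fold higher (129 to 313). LDOX was 333-fold higher (161 to 828), and GSTF12, which carries anthocyanin to the vacuole, had 155 CPM in WT labelled release, against 0.395 in WT labelled stress.

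Regulators of the late steps were higher too. PAP1, a MYB factor of anthocyanin synthesis, had 28.4 CPM in WT labelled release and no reads in WT labelled stress, at least 71.9-fold higher, and its partner TT8 had 32.7 against 0.132 CPM. MYB111, which acts on the flavonol branch, had 10.3 CPM in WT labelled release, against 7.37 in WT labelled stress. UGT78D1, a flavonol glycosyltransferase, was the 1 member of the list below equality, with 41.8 CPM in WT labelled release, against 47.2 in WT labelled stress and 58.0 in WT control. Summed over the list, WT labelled release had 3594 CPM, WT labelled stress 219.7 CPM and WT control 200.0 CPM.

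Sugar and starch genes leaned to the higher side, with 10 of the 18 genes that reached 5 CPM at least 2-fold higher, 2 lower and a median log2 ratio of 1.28. SUS3, a sucrose synthase, had 249.7 CPM in WT labelled release, against 1.97 in WT labelled stress and 4.66 in WT control, 127-fold higher (76.5 to 226). GOLS2, the stress-linked galactinol synthase of raffinose synthesis, had 150.3 CPM in WT labelled release, against 9.21 in WT labelled stress. APL3, a subunit of the enzyme that commits glucose to starch, had 193 CPM in WT labelled release, against 13.3 in WT labelled stress. MIOX2, which opens the ring of inositol, went the other way with 7.81 CPM in WT labelled release, against 58.4 in WT labelled stress and 26.1 in WT control.

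Genes of leaf senescence were at least 2-fold higher in 5 of 6 cases, beside 10.3% of all genes. ORE1, a NAC factor that drives senescence, had 28.4 CPM in WT labelled release, against 2.50 in WT labelled stress, and PAO, which opens the chlorophyll ring, had 145 against 44.6 CPM. The late marker SAG12 had no reads in either library. Genes of low energy had 3 of 10 at least 2-fold higher and 2 lower, beside 10.3% and 11.6% of all genes. DIN2 had 54.3 CPM in WT labelled release, against 1.71 in WT labelled stress, while DIN10 had 365 CPM in WT labelled release, against 1910 in WT labelled stress and 1777 in WT control.

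Photosynthesis genes were lower together. All 30 genes of light harvesting and the photosystems had a lower value in WT labelled release than in WT labelled stress, 17 of them by at least 2-fold, with log2 ratios between -1.94 and -0.41 and a median of -1.07. Their sum was 24034 CPM in WT labelled release, 52199 in WT labelled stress and 57911 in WT control. LHCB5 and LHCB6, minor antenna proteins of photosystem II, had 788 and 519.8 CPM in WT labelled release, against 2567 and 1704 in WT labelled stress. PSBQ1, of the oxygen-evolving complex, had 222 CPM in WT labelled release, against 856 in WT labelled stress and 843 in WT control. PSBS, which dissipates excess light, differed least, with 613 CPM in WT labelled release, against 815 in WT labelled stress.

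In the Calvin cycle 5 of 13 genes were at least 2-fold lower and none higher (median log2 ratio -0.97). Beside RCA, the enzyme PRK, which makes the CO2 acceptor, had 389 CPM in WT labelled release, against 926 in WT labelled stress and 981 in WT control. SBPASE, which acts in regenerating that acceptor, had 326 CPM in WT labelled release, against 756 in WT labelled stress. The other 8 genes stayed under 2-fold, FBA1 nearest to equality with 587 CPM in WT labelled release, against 778 in WT labelled stress.

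Genes of growth were lower as well. Of 20 genes of wall expansion with 5 CPM, 13 were at least 2-fold lower in WT labelled release and 1 higher (median log2 ratio -2.31). XTH4 had 55.9 CPM in WT labelled release, against 656 in WT labelled stress and 548 in WT control, 11.7-fold lower (10.7 to 12.9). EXPA8, an expansin, had 6.32 CPM in WT labelled release, against 135 in WT labelled stress and 141 in WT control, 21.4-fold lower (16.3 to 28.6). EXPA11 was the exception, with 44.6 CPM in WT labelled release, against 19.3 in WT labelled stress.

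Among aquaporins, the water channels, 10 of 17 were at least 2-fold lower and 1 higher (median log2 ratio -1.14). TIP2;1 of the vacuole had 48.0 CPM in WT labelled release, against 590.1 in WT labelled stress and 968 in WT control, 12.3-fold lower (11.1 to 13.6). PIP1;5 of the plasma membrane had 53.7 CPM in WT labelled release, against 494 in WT labelled stress. PIP2;5 was higher, with 33.3 CPM in WT labelled release, against 4.08 in WT labelled stress and 3.03 in WT control.

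Auxin genes were at least 2-fold lower in 13 of 17 cases and higher in none (median log2 ratio -1.24). IAA19, an early auxin-induced repressor linked to cell elongation, had 0.804 CPM in WT labelled release, against 30.6 in WT labelled stress and 47.7 in WT control, 38.1-fold lower (18.2 to 95.9). IAA29 had no reads in WT labelled release, against 13.7 in WT labelled stress. Of the efflux carriers, PIN7 and PIN3 had 59.0 and 118 CPM in WT labelled release, against 194 and 255 in WT labelled stress.

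Cell cycle genes were at least 2-fold lower in 10 of 14 cases and higher in none (median log2 ratio -1.31). AUR1, a mitotic kinase, had 1.49 CPM in WT labelled release, against 9.21 in WT labelled stress and 4.42 in WT control. CYCB1;2, a mitotic cyclin, had 6.55 CPM in WT labelled release, against 20.3 in WT labelled stress, and MCM2, of the replication helicase, had 15.4 against 32.5 CPM. A fraction of up to 0.188 of the reads of CYCB1;2 in the WT pair was placed at several sites, so its value is uncertain. The D-type cyclins CYCD3;1 and CYCD3;3, which act at entry to the cycle, differed by under 2-fold. Of the type-A response regulators, the early targets of cytokinin, 2 of 6 were at least 2-fold lower, beside 11.6% of all genes. These were ARR5 and ARR7 (6.32 against 14.9 CPM and 3.90 against 12.8 CPM, WT labelled release first), and the other 4 stayed under 2-fold.

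Jasmonate genes split within the list. The JAZ repressors and synthesis genes were mostly lower, and 9 of 20 passed 2-fold downwards and 2 upwards (median log2 ratio -0.79). LOX3, a lipoxygenase of synthesis, had 12.3 CPM in WT labelled release, against 110 in WT labelled stress and 359 in WT control, 8.93-fold lower (7.29 to 11.0). JAZ10 had 1.38 CPM in WT labelled release, against 17.0 in WT labelled stress. The higher genes were the vegetative storage proteins, VSP2 with 579.7 CPM in WT labelled release, against 29.3 in WT labelled stress and 112 in WT control, and VSP1 with 73.5 against 9.21 CPM.

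Glucosinolate synthesis, which makes the sulphur-rich defence compounds of the cabbage family, had 7 of 16 genes at least 2-fold lower and none higher (median log2 ratio -0.93). BAT5, a transporter of the methionine-derived branch, had 12.4 CPM in WT labelled release, against 40.5 in WT labelled stress, and CYP79F2 had 15.0 against 46.4 CPM. CYP79B2, of the tryptophan-derived branch, had 146 CPM in WT labelled release, against 85.6 in WT labelled stress. Salicylate and defence genes had no common direction, with a median log2 ratio of 0.07 that turned to -0.26 with a floor of 20 CPM and to -0.02 with RPKM. PR1 had 92.0 CPM in WT labelled release, against 0.658 in WT labelled stress and 0.233 in WT control, while WRKY70, a factor of salicylate signalling, had 28.8 against 63.4 CPM.

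Small heat shock proteins, chaperones that hold unfolded proteins, were higher at low levels. HSP22.0 had 27.9 CPM in WT labelled release and no reads in WT labelled stress or WT control, and HSP17.4 had 34.8 CPM in WT labelled release, against 5.92 in WT labelled stress and 1.40 in WT control. The large chaperones differed by under 2-fold, HSP101 and HSP90.1 with 20.8 and 60.9 CPM in WT labelled release, against 30.8 and 91.6 in WT labelled stress. Of 14 genes listed 8 reached 5 CPM and 5 were at least 2-fold higher, all of them small heat shock proteins. The median log2 ratio of the 8 was 2.10, but 0.28 with a floor of 20 CPM, which leaves fewer of the small ones.

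Genes of the plant surface were mixed, with 2 of 19 at least 2-fold higher and 5 lower, beside 10.3% and 11.6% of all genes. GPAT8 and CYP86A2, of cutin synthesis, had 7.81 and 96.0 CPM in WT labelled release, against 86.7 and 308 in WT labelled stress. CER1, of wax alkane synthesis, had 70.6 CPM in WT labelled release, against 25.1 in WT labelled stress. In nitrogen assimilation, the nitrate transporter NRT1.1 had 64.8 CPM in WT labelled release, against 249.7 in WT labelled stress and 101 in WT control, and the plastid glutamine synthetase GS2 had 979 against 2322 CPM. Plastid fatty acid synthesis had 1 of 14 genes at least 2-fold lower, beside 11.6% of all genes. This was the acyl carrier protein ACP4, with 32.4 CPM in WT labelled release, against 235 in WT labelled stress and 169 in WT control.

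**Figure D4:**
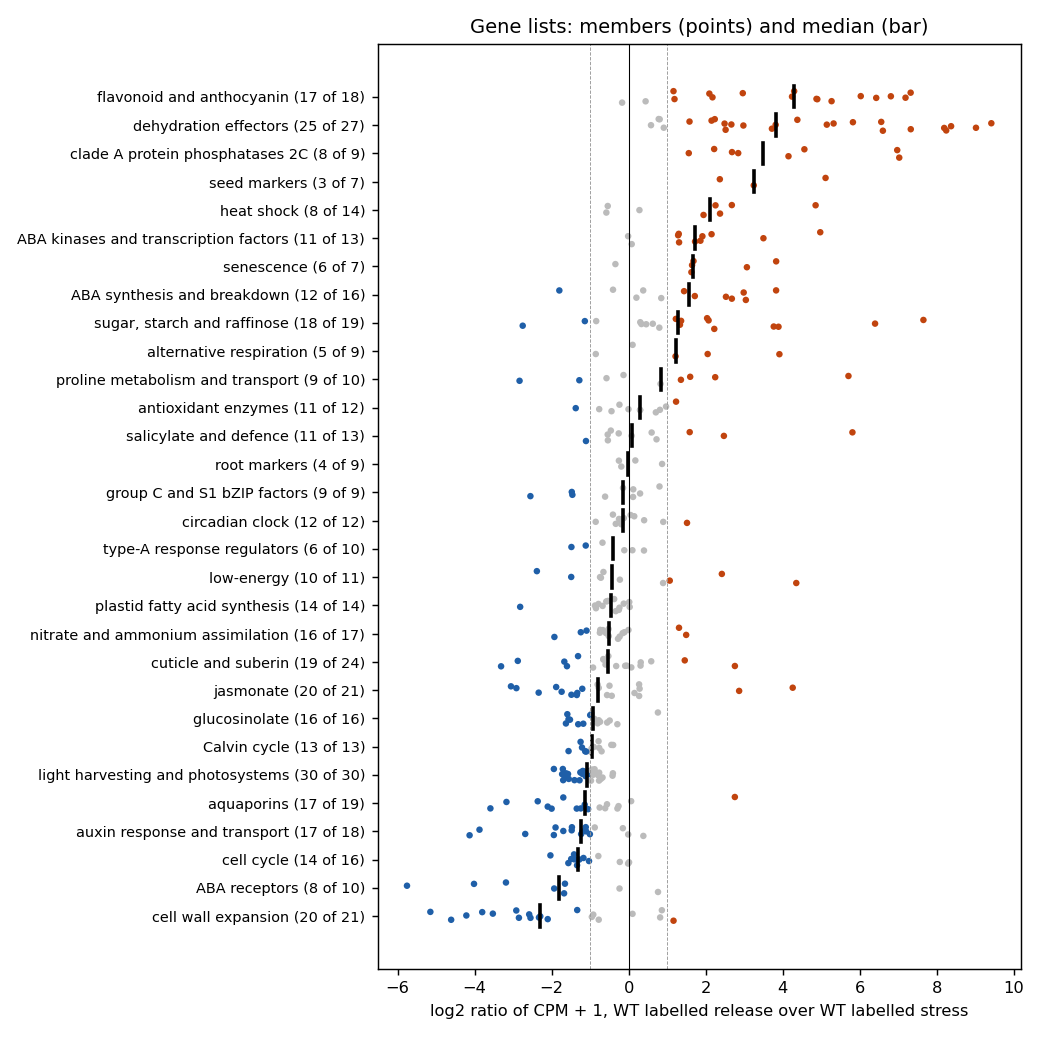
Log2 ratio of CPM + 1, WT labelled release over WT labelled stress, for the members of each gene list (horizontal axis), with lists ordered by median. Points are genes that reached 5 CPM (their number of all members stands beside the list's name), red at least 2-fold higher, blue at least 2-fold lower, grey in between, black bars are medians and dashed lines mark 2-fold. Medians run between 4.30 for flavonoid genes and -2.31 for genes of wall expansion.

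The same contrast was made in the mutants, which share no library with WT. In p5cs1-4, labelled release exceeded labelled stress by 2-fold or more in 992 genes (5.98%) and fell short of it by as much in 1030 (6.21%), or 12.2% in all. In aba2-1 the counts were 629 higher (3.79%) and 937 lower (5.64%), or 9.43% in all. Among 16010 genes measured in both WT and p5cs1-4, 622 were higher in both, which is 38.5% of the WT calls and 68.3% of the p5cs1-4 calls, where 5.69% of all these genes were higher in p5cs1-4. Lower in both were 652 genes, 39.7% of the WT calls and 69.5% of the p5cs1-4 calls, where 5.86% of all these genes were lower in p5cs1-4. Among 15969 genes measured in both WT and aba2-1, 279 were higher in both, 19.3% of the WT calls and 48.9% of the aba2-1 calls, and 386 were lower in both, 22.1% and 48.0%. Of all these 15969 genes, 3.58% were higher and 5.04% lower in aba2-1. All 3 genotypes shared 216 higher and 228 lower genes, out of the 629 and 937 called in aba2-1. Whether a gene called in WT alone differs between genotypes was not tested.

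The 10 highest and 10 lowest ratios, chosen in WT, were all smaller in size in both mutants. Extremes picked in 1 pair of libraries tend to be smaller in any other pair, so no difference between genotypes can be read from this. Of the 10 highest, with log2 ratios between 7.32 and 9.42 in WT, 9 were at least 2-fold higher in p5cs1-4 and 8 in aba2-1, where their log2 ratios lay between 0.15 and 6.25 and between -0.15 and 3.68. RAB18 had 4778 CPM in p5cs1-4 labelled release, against 81.4 in p5cs1-4 labelled stress, and 66.2 CPM in aba2-1 labelled release, against 5.15 in aba2-1 labelled stress and 252 in aba2-1 control. LTP4 likewise had its highest aba2-1 value in the control, with 41.3 CPM in aba2-1 labelled release, against 478 in aba2-1 control. The dehydration effectors summed to 1593 CPM in aba2-1 labelled release, against 750.4 in aba2-1 labelled stress and 2819.5 in aba2-1 control. LDOX stood apart, with 285 against 257 CPM in p5cs1-4 and 96.4 against 107 CPM in aba2-1, labelled release first. Levels of LDOX near the 306 CPM of WT labelled release were thus found in both of these p5cs1-4 libraries, and also in aba2-1 control with 307 CPM. The flavonoid list summed to 887 CPM in aba2-1 labelled release, against 747 in aba2-1 labelled stress and 2566 in aba2-1 control. The list median of flavonoid genes was 4.30 in WT, 0.32 in p5cs1-4 and -0.06 in aba2-1, and that of dehydration effectors was 3.82, 2.93 and 0.86 in that order. The difference between genotypes was not tested, with 1 library for each group.

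PRODH1 was lower in labelled release in each genotype, with 20.1 CPM in p5cs1-4 labelled release, against 240.4 in p5cs1-4 labelled stress and 125 in p5cs1-4 control, and 33.6 CPM in aba2-1 labelled release, against 401 in aba2-1 labelled stress and 261 in aba2-1 control. P5CS1 reads were found in p5cs1-4 as well, with 1199 CPM in p5cs1-4 labelled release, against 174 in p5cs1-4 labelled stress. NCED3 had nearly the same log2 ratio in the genotypes, with 2.99 in WT, against 2.84 in aba2-1 and 2.78 in p5cs1-4. The sets of light harvesting and auxin genes, with medians of -1.07 and -1.24 in WT, had medians of 0.21 and 0.01 in aba2-1 and of -0.49 and -0.25 in p5cs1-4.

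**Figure D5:**
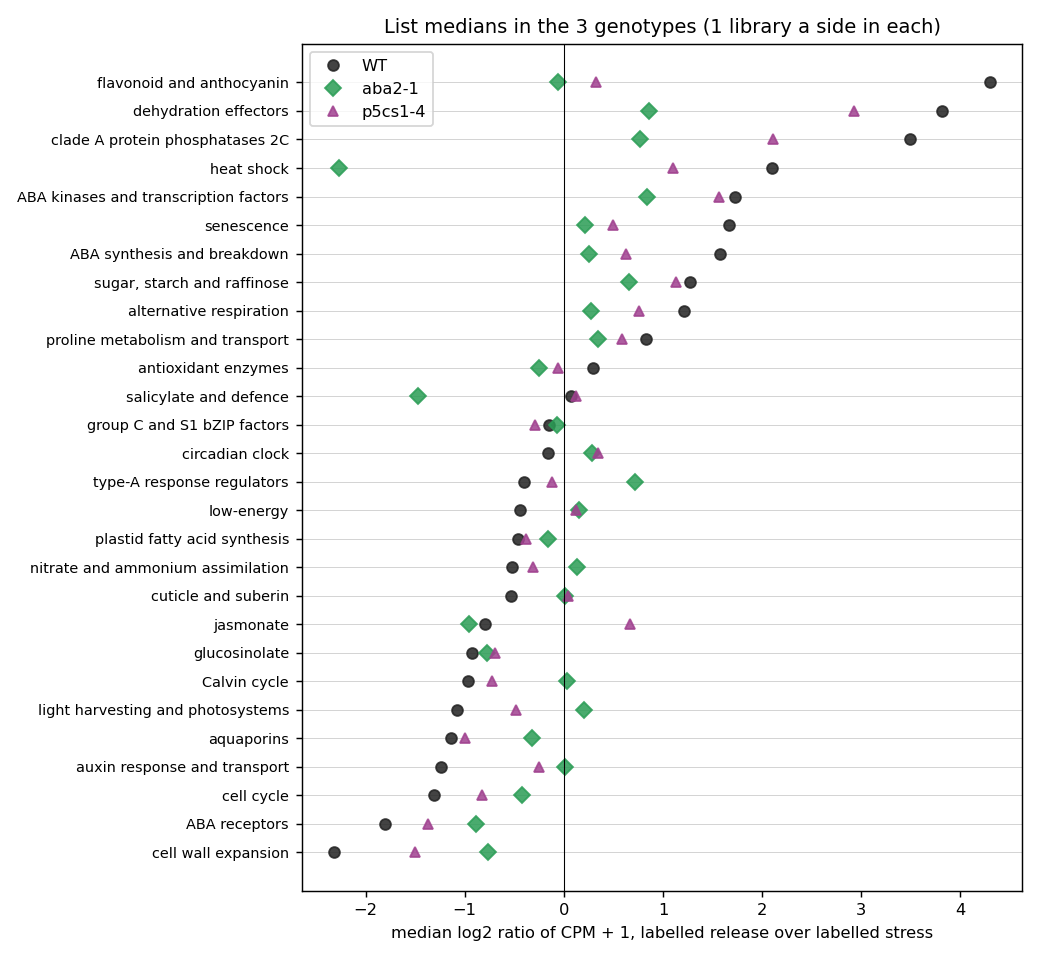
Median log2 ratio of CPM + 1, labelled release over labelled stress, for each list with at least 5 measured genes in WT, with circles for WT, diamonds for aba2-1 and triangles for p5cs1-4. Each symbol compares 1 library with 1 library. Flavonoid genes lie at 4.30 in WT and near 0 in both mutants, while dehydration effectors lie at 3.82 in WT, against 0.86 in aba2-1 and 2.93 in p5cs1-4.

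The only replicated test takes the genotypes as replicates of the treatment, in an additive model of genotype and treatment over the 9 libraries (edgeR's quasi-likelihood test, Benjamini-Hochberg adjusted p). Of 19600 genes, 301 rose (1.54%) and 429 fell (2.19%), or 3.72% in all, in labelled release against labelled stress. PRODH1 fell by 3.36 on the log2 scale (SE 0.22, edgeR adjusted p = 0.00475), NCED3 rose by 3.07 (SE 0.20, adjusted p = 0.00475) and MIOX2 fell by 2.92 (SE 0.17, adjusted p = 0.00475), each with the same direction in 3 of 3 genotypes. All directions in this model follow the sample titles. Exchanging labelled release and labelled stress in every genotype would turn the signs and leave that agreement unchanged, so it cannot tell which table is which treatment. P5CS1 rose by 4.14 (SE 0.85, edgeR adjusted p = 0.0471) in 3 of 3 genotypes. These genotypes include p5cs1-4, in which P5CS1 itself is mutated. The fold of P5CS1 was 6.89 in p5cs1-4, 15.2 in aba2-1 and 52.9 in WT. ABF3, GOLS2 and RD29A rose, with edgeR adjusted p of 0.0106, 0.0270 and 0.0224.

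Of the listed genes in this model, 6 of 11 ABA kinase and transcription factor genes rose, as did 6 of 25 dehydration effectors and 5 of 19 sugar and starch genes. In the other direction, 7 of 21 genes of wall expansion fell, among them XTH7, XTH24 and XTH4 with edgeR adjusted p of 0.0224, 0.0224 and 0.0271, and 5 of 16 glucosinolate genes, 3 of 19 aquaporins and 2 of 8 ABA receptors fell, while the receptor gene PYL7 rose. No phosphatase, flavonoid, light harvesting, Calvin cycle, auxin or jasmonate gene passed, with adjusted p of 0.0837 for HAI1 (model log2 ratio 5.23, SE 1.45), 0.424 for DFR and 0.288 for LTP4 by edgeR. With the WT libraries left out, or those of p5cs1-4, the model called 0 genes in either direction, with 2969 and 2391 genes at an unadjusted p under 0.05. These fits have 2 residual degrees of freedom in place of 4. The fit without the aba2-1 libraries also has 2, and it called 802 higher and 1091 lower genes. Why the calls were lost in the other fits was not tested.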

How the data were processed

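Polyadenylated RNA of 9 groups of whole seedlings was sequenced, 1 pooled library each, with 18 cycles of PCR per the labels' protocols. Per the file headers, the deposited tables list for each of 33518 genes a length, an estimated count, an RPKM value and the fraction of reads placed at several sites. The authors' estimated counts share such reads out among genes, and between 92.4% and 95.4% of values were whole within 1e-06. CASAVA 1.6 and TAIR10 are named in the submitters' processing notes. How reads were aligned and counted, and whether strand was used, is not given in the sources used here, so overlapping and antisense genes cannot be told apart. Locus tags matched TAIR10.1 for 32709 genes (97.6%), and coordinates and promoters are RefSeq's, from TAIR10.1.

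Estimated counts were rounded and scaled by TMM to CPM (edgeR 4.0.16, R 4.3.3). Genes reaching 5 CPM in at least 1 library of a pair were compared on log2(CPM + 1) and called at 2-fold, a scale that understates the folds of low genes. Folds of single genes are ratios of CPM, with exact 95% conditional intervals from SciPy 1.17.1, and a gene without reads was given a floor of 3 counts in that library. No p-value was computed for 1 library against 1. The additive model of genotype and treatment took all 9 libraries and genes with a mean of at least 1 CPM. It had 4 residual degrees of freedom and an adjusted p threshold of 0.05, with DESeq2 1.42.0 as its alternative. Data were also simulated with a dispersion (spread between libraries) of 0.05 and the same fold in every genotype. The model then recovered 49% of 100 genes changed 2-fold and 98% of 100 changed 4-fold, and called 7 unchanged genes. Folds that differ between genotypes were not simulated. The members and the 31 gene lists (447 genes) were chosen with earlier results of these data known.

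The genes named are P5CS1 and PRODH1, the 10 highest and 10 lowest ratios and the 5 largest gains and losses in CPM among genes that have a symbol and share at most 0.5 of their reads, and in each list up to 4 members with the largest ratios and the largest of the opposite sign. Other members of the lists were named for their roles, with their values known.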

Additional observations from a re-analysis of the deposited data

Results flagged for a closer look

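In 8 of the 148 named genes, labelled release and labelled stress differed by at least 2-fold in opposite directions in WT and in a mutant. These genes reached 5 CPM in both genotypes. In 2 gene lists the medians had opposite signs and a size of at least 0.5 in both genotypes. Smaller differences of sign also occurred and are not listed. Over all genes measured in both genotypes, 91 of the 1446 genes higher in WT were at least 2-fold lower in aba2-1, beside 5.04% of all these genes. Of the 1750 lower in WT, 26 were higher in aba2-1, beside 3.58% of all. In p5cs1-4, 31 of 1614 were lower, beside 5.86% of all, and 13 of 1642 were higher, beside 5.69% of all. Each group is 1 library, and in no case was the difference tested. CYP707A1, an ABA hydroxylase, had a log2 ratio of 3.83 in WT and -1.08 in aba2-1. SEN1 had -1.49 in WT and 1.66 in aba2-1. NRT1.8, a nitrate transporter of the xylem, had 1.49 in WT, against -3.60 in aba2-1 and -1.66 in p5cs1-4. The small heat shock protein genes HSP17.4 and HSP18.2 had 2.37 and 2.25 in WT and -2.64 and -1.40 in aba2-1. The defence genes PR1 and PR2 had 5.81 and 1.58 in WT and -1.47 and -2.62 in aba2-1. AOX1D, an alternative oxidase, had 3.91 in WT and -1.25 in aba2-1.

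The median of the heat shock list was 2.10 in WT and -2.27 in aba2-1, and that of the jasmonate list was -0.79 in WT and 0.67 in p5cs1-4. HSP17.4 had 34.8 CPM in WT labelled release, against 5.92 in WT labelled stress, and 3.27 CPM in aba2-1 labelled release, against 25.6 in aba2-1 labelled stress. PR2 had 18.9 CPM in WT labelled release, against 5.66 in WT labelled stress, and 11.3 CPM in aba2-1 labelled release, against 74.5 in aba2-1 labelled stress.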

How the results depend on the processing

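The counts of WT genes at least 2-fold apart were between 1655 and 2221 higher and between 1594 and 2392 lower with a pseudocount of 0.1 CPM, no floor, median-of-ratios scaling, library totals alone, reads that map to 1 place only and RPKM as deposited, all within 1.5 times of 1718 and 1932. With a floor of 20 CPM they were 993 higher and 1231 lower in WT, 319 higher in aba2-1, and 616 higher and 673 lower in p5cs1-4, where fewer genes are compared. Scaling by library totals alone shifted the median log2 ratio of WT genes to 0.08, the largest shift of any scaling. The ratios of bZIP1, bZIP53 and bZIP11 became 0.0 with reads that map to 1 place only, because all their reads are shared. Of the other log2 ratios of named genes, 698 of the values under alternatives differed little and 40, with bZIP11 among them, moved. Of the list medians under alternatives, 167 stayed within 0.1 and 42 moved, mostly with the floor or the pseudocount. The median of proline genes lay between 0.35 and 1.15, of ABA synthesis and breakdown between 0.61 and 1.72, and of heat shock genes between 0.28 and 2.55. The additive model called 0 higher and 0 lower genes without WT and without p5cs1-4, 802 higher and 1091 lower without aba2-1, 22 higher and 11 lower without the control libraries, and 1120 higher and 1461 lower with DESeq2, against 301 and 429. Why these counts moved was not tested. No paired analysis was possible because WT has 1 library a side and the labels give no replicate numbers, while the additive model already holds genotype as a term. Depth limits genes near 5 CPM most in WT control, with 4898426 reads.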

Other observations

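Of 5 genes of alternative respiration with at least 5 CPM, 3 were at least 2-fold higher in WT labelled release and none lower, beside 10.3% and 11.6% of all genes. Of 11 antioxidant genes 9 were within 2-fold, where 21.9% of all genes were at least 2-fold apart, so this list was near the background. The alternative oxidase AOX1A, the main form in leaves, had 52.3 CPM in WT labelled release, against 48.7 in WT labelled stress and 63.8 in WT control, while AOX1D had 18.0 CPM in WT labelled release, against 0.263 in WT labelled stress. NDB2, an external NADH dehydrogenase of mitochondria, had 29.3 CPM in WT labelled release, against 6.31 in WT labelled stress, and NDA1 had 32.0 CPM in WT labelled release, against 58.8 in WT labelled stress. Among the antioxidant genes with at least 5 CPM, GPX6 was at least 2-fold higher (105 CPM in WT labelled release, against 44.2 in WT labelled stress) and TAPX of the thylakoid was at least 2-fold lower (40.4 CPM in WT labelled release, against 107 in WT labelled stress).

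Clock genes differed little in seedlings kept in continuous light. Of 12 genes, ELF4 alone passed 2-fold on CPM + 1, where 21.9% of all genes did. ELF4 had 76.6 CPM in WT labelled release, against 26.2 in WT labelled stress and 19.6 in WT control. PRR9 had 9.19 CPM in WT labelled release, against 4.47 in WT labelled stress, a plain fold of 2.05 (1.36 to 3.17). A fraction of up to 0.353 of the reads of PRR9 in the WT pair was placed at several sites, so its value is uncertain. The morning genes CCA1 and LHY had 68.8 and 57.3 CPM in WT labelled release, against 78.5 and 72.6 in WT labelled stress, and the evening gene TOC1 had 144 CPM in WT labelled release, against 130.5 in WT labelled stress. Floral markers were low in all WT libraries, with PI at 5.63 CPM in WT labelled release and 8.16 CPM in WT labelled stress.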
